A study of Mus musculus with 1615 samples.

Results

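The 6 actin genes of the mouse, Actb, Actg1, Acta2, Actg2, Actc1 and Acta1, were followed across cell classes of the colon. They were picked by symbol, 6 of 46517 gene IDs in the deposited count table, and together they took 0.799% of all gene counts. The data are full-length (Smart-Seq2) single-cell RNA-seq libraries, each of 1 colon cell, from 11 mice, 2 of them female and 9 male, aged 8 to 30 weeks by the labels. The series' design text speaks of males only and of a narrower range of ages, and the mice labelled female gave most of the visceral and vascular smooth muscle cells described below. Cells came from 5 reporter lines. The dual line ACTA2GFP:CSPG4dsRED gave mice 20GG79:1 (female), 20GG95:3 (female, on 2 plates) and 20GG79:6 (male), with 22.2%, 31.3% and 14.99% of the cells. All other mice were male: 17E61:24, 19CB4:5 and 18CB155:7 of the PDGFRbGFP line, 19CB27:3 of the CSPG4dsRED line, 18CB39:3 and 18CB109:10 of the PDGFRaH2bGFP line, and 19CB34:7 and 19CB38:5 of the ACTA2GFP line. The labels name no treatment, and each line is taken to carry the reporter in its name. The labels give the tissue as colon, while the protocol text names heart as the dissociated organ; the epithelium-like cells below were led by Krt8, Lgals4, Krt19 and Epcam, and 16 genes of striated and heart muscle summed to at most 65.2 CPM in any mouse and class. The reporter of 2 lines takes its name from Acta2, 1 of the 6 genes. No source used here states the sorting gates, so the Acta2 level of a class depends on a selection of unknown width.

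Actins are the subunits of the thin filaments. Actb and Actg1 encode the cytoplasmic beta and gamma forms found in nearly every cell. Acta2 and Actg2 encode the alpha and gamma smooth muscle forms, the first the usual marker of vessel walls and the second most abundant in gut muscle, and Actc1 and Acta1 encode the main forms of adult heart and skeletal muscle. Serum response factor (SRF), which binds the CArG box, drives the muscle actins together with its coactivator myocardin, and free actin monomers hold back the related coactivators Mrtfa and Mrtfb.

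The proteins are nearly identical, so the messages were compared first, in GENCODE M21 transcripts of the build GRCm38. The translated coding sequences of Actb and Actg1 differed at 4 residues, those of Acta2 and Actg2 at 3, and those of Actc1 and Acta1 at 4. The coding bases differed more: 88.7% were identical between Actb and Actg1 and 84.2% between Acta2 and Actg2. The last 60 coding bases before the stop codon show what a read can use to tell the genes apart. They are given 5′ to 3′ on the coding strand, with capitals where a base differs from that of Acta2.
Acta2, coding bases 1072 to 1131: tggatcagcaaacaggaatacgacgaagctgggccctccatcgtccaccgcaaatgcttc
Actg2, coding bases 1069 to 1128: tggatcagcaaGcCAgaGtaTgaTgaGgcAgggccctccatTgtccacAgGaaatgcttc
Actc1, coding bases 1072 to 1131: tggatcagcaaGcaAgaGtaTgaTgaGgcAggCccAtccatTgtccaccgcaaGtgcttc
Acta1, coding bases 1072 to 1131: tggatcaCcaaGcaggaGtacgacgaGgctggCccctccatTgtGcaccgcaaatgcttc
Actb, coding bases 1066 to 1125: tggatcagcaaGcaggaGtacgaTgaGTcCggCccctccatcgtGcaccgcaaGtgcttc
Actg1, coding bases 1066 to 1125: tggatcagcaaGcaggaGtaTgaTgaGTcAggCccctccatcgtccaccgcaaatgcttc
In this stretch Actg2 and Actc1 each differed from Acta2 at 11 bases, Actb at 9, Actg1 at 8 and Acta1 at 7. The longest run shared by Acta2 and Actg1 there was 27 bases. Elsewhere some runs were longer, and the longest runs of 2 pairs are printed as examples of stretches in which a short read could have come from either gene.
Actb and Actg1, 62 bases: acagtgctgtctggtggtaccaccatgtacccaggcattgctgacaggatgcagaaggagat
Actg1 and Acta2, 56 bases: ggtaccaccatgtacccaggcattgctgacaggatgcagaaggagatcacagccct
The pair most often set against each other in smooth muscle, Acta2 and Actg2, shared no run longer than 29 bases. No source used here states the read length or what was done with reads that match several places.

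All 6 genes lie on the minus strand (GRCm38). Actb (ENSMUSG00000029580) is at chr5:142903115-142906754, Actg1 (ENSMUSG00000062825) at chr11:120345690-120348542 and Acta2 (ENSMUSG00000035783) at chr19:34241090-34255590. Actg2 (ENSMUSG00000059430) is at chr6:83512905-83536265, Actc1 (ENSMUSG00000068614) at chr2:114047282-114053548 and Acta1 (ENSMUSG00000031972) at chr8:123891769-123894751. In the annotation Actc1 and Acta1 each overlap a gene on the other strand, A530058N18Rik and Gm20388, and Actg1 holds the microRNA genes Gm23419 and Mir6935. The Smart-Seq2 protocol does not mark strand, so reads of an overlapping gene cannot be told apart from those of the actin.

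The CArG box is the known SRF element of muscle actin genes, so the windows before the start sites were searched for it on both strands. RefSeq (GRCm38.p6) windows of 250 bases before to 50 bases after the start were at hand for 4 of the 6 genes, not for Actb or Actg2. A box with all 6 central bases A or T was found in Acta1, Actc1 and Actg1, against 1.47% of 32851 windows of all genes. Acta2 held only boxes with 1 of the central bases C or G, and a box of either kind occurred in 8.59% of windows. The box nearest the start in 3 genes, and in Acta2 the one before it, is printed in capitals within 60 bases, 5′ to 3′ on the minus strand.
Acta1, chr8:123894814-123894873: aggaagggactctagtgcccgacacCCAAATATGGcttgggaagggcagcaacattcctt
Actc1, chr2:114052888-114052947: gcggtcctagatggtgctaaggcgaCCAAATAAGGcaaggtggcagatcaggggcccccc
Acta2, chr19:34255423-34255482: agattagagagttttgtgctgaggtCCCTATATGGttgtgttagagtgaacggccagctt
Actg1, chr11:120348551-120348610: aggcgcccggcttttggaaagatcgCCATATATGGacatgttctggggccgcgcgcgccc
The boxes start 73, 47, 84 and 90 bases before the start site. A match describes letters only and is not evidence of binding in these cells.

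Cells were grouped by expression with the actins and the actin-related lists left out of the clustering, and the 18 clusters were named from marker genes. This gave 560 visceral smooth muscle-like, 97 vascular smooth muscle-like, 160 pericyte-like, 79 lymphatic endothelium-like, 59 glia-like, 30 immune-like and 57 epithelium-like cells. Fibroblast-like cells made up 13.3% of all cells and blood endothelium-like cells 22.2%. The depth of a cell lay between 45388 and 1046988 gene counts (median 194180), and every cell held actin counts. Levels are CPM, counts scaled to the same total of gene counts in every sum, of the summed cells of a mouse, for mice with at least 5 cells of a class; n is the number of mice. All visceral, vascular and pericyte-like cells come from the 3 mice of the dual line. In all, 340 cells were mixed, with 2 or more markers of a second class over the median of that class, 45 of them among the 79 lymphatic, 76 among the 160 pericyte-like, 35 among the 97 vascular, 72 among the 560 visceral and 67 among the fibroblast-like cells. The 39 glia-like cells of mouse 20GG79:6 went against their name: their summed pericyte markers reached 4928 CPM and their glial markers 3106 CPM, where the 15 glia-like cells of 19CB27:3 had 374.1 and 5679 CPM. Classes and levels rest on the same cells, so a difference between classes is no independent evidence for the classes.

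**Figure D1:**
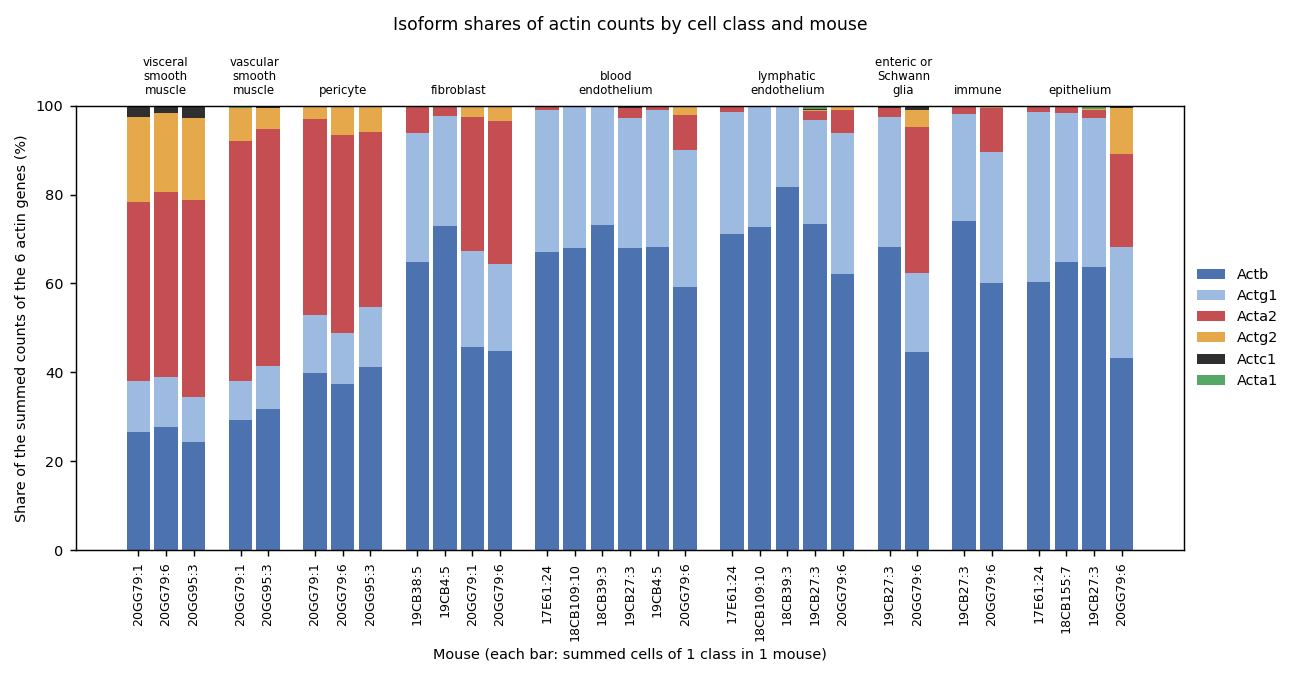
Share of summed actin counts (percent, vertical axis) taken by each of the 6 isoforms in each mouse with at least 5 cells, 1 stacked bar per mouse, grouped by class. Acta2 takes the largest part in both smooth muscle classes, the Actg2 part is widest in visceral bars, and Actb with Actg1 fill most of the endothelial bars.

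Smooth muscle held more actin than the other classes, in a different mix. The 6 genes together reached 13533 ± 3748 CPM in visceral cells (SD, n = 3) and 13102 ± 2560 CPM in vascular cells (n = 2). Pericyte-like cells held 6540 ± 2076 CPM (n = 3), fibroblast-like cells 4000 ± 458.8 CPM (n = 4) and blood endothelium 4457 ± 825 CPM (n = 6). Visceral values lay between 10796 and 17804 CPM in the 3 mice and did not overlap those of fibroblast-like cells or endothelium.

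Of the actin counts in visceral cells, Acta2 took 40.2% in 20GG79:1, 41.6% in 20GG79:6 and 44.2% in 20GG95:3. Actg2 took 19.2%, 17.7% and 18.4% in the same order, and Actb 26.5%, 27.6% and 24.4%. Summed over their cells, the 3 mice thus had nearly the same mix although their total differed. Within 20GG95:3 the plates lay further apart, with Acta2 at 38.4% on 053s and 48.5% on the other, and Actb at 28.2% and 21.5%. Divided by exon length, to compare levels between genes, Acta2 took 41.3% ± 1.87, Actg2 25.5% ± 0.926 and Actb 21.1% ± 1.48 (n = 3). Exon length here joins all transcripts of a gene, 2679 bases for Actb and 1557 for Actg2. The longest coding transcripts have 1920 and 1333 bases, so the gap between Actg2 and Actb depends on the length used.

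In vascular cells Acta2 took 54.1% of actin counts in 20GG79:1 (5 cells) and 53.2% in 20GG95:3 (91 cells). Actg2 took 7.31% and 4.81%. Vascular cells therefore lay above all 3 visceral values for Acta2 and below all of them for Actg2. Per exon length Acta2 was the most abundant isoform in 97 of 97 vascular and 539 of 560 visceral cells.

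Pericyte-like cells divided their counts between Acta2 and Actb. Acta2 took 44.1%, 44.4% and 39.3% in 20GG79:1, 20GG79:6 and 20GG95:3, and Actb 39.9%, 37.4% and 41.2%. Cell by cell the mix was wide: the Acta2 share ran from 9.62% at the 10th percentile of cells to 61.3% at the 90th. Per exon length Acta2 led in 79 cells and Actb in 76 of 160, a count that depends on the length used. Without cells that carried markers of another class the Acta2 share was 39.4%, 27.4% and 31.6%. On the 2 plates of 20GG95:3 it was 31.01% and 45.5%, a gap larger than that between mice.

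Non-muscle classes were led by the cytoplasmic forms. Actb took 67.2% ± 4.50 and Actg1 30.3% ± 1.98 of actin counts in blood endothelium (n = 6), and 72.2% ± 6.99 and 25.6% ± 5.11 in lymphatic endothelium (n = 5). Epithelium-like cells had the highest mean Actg1 share of the 9 classes, 32.6% ± 5.45 (n = 4), which overlapped the blood endothelial values. In fibroblast-like cells Actb took 57.1% ± 14.04, and here the mice differed. The Acta2 share was 30.0% and 32.1% in the dual-line mice 20GG79:1 and 20GG79:6, and 5.93% and 2.10% in 19CB38:5 and 19CB4:5.

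**Figure D2:**
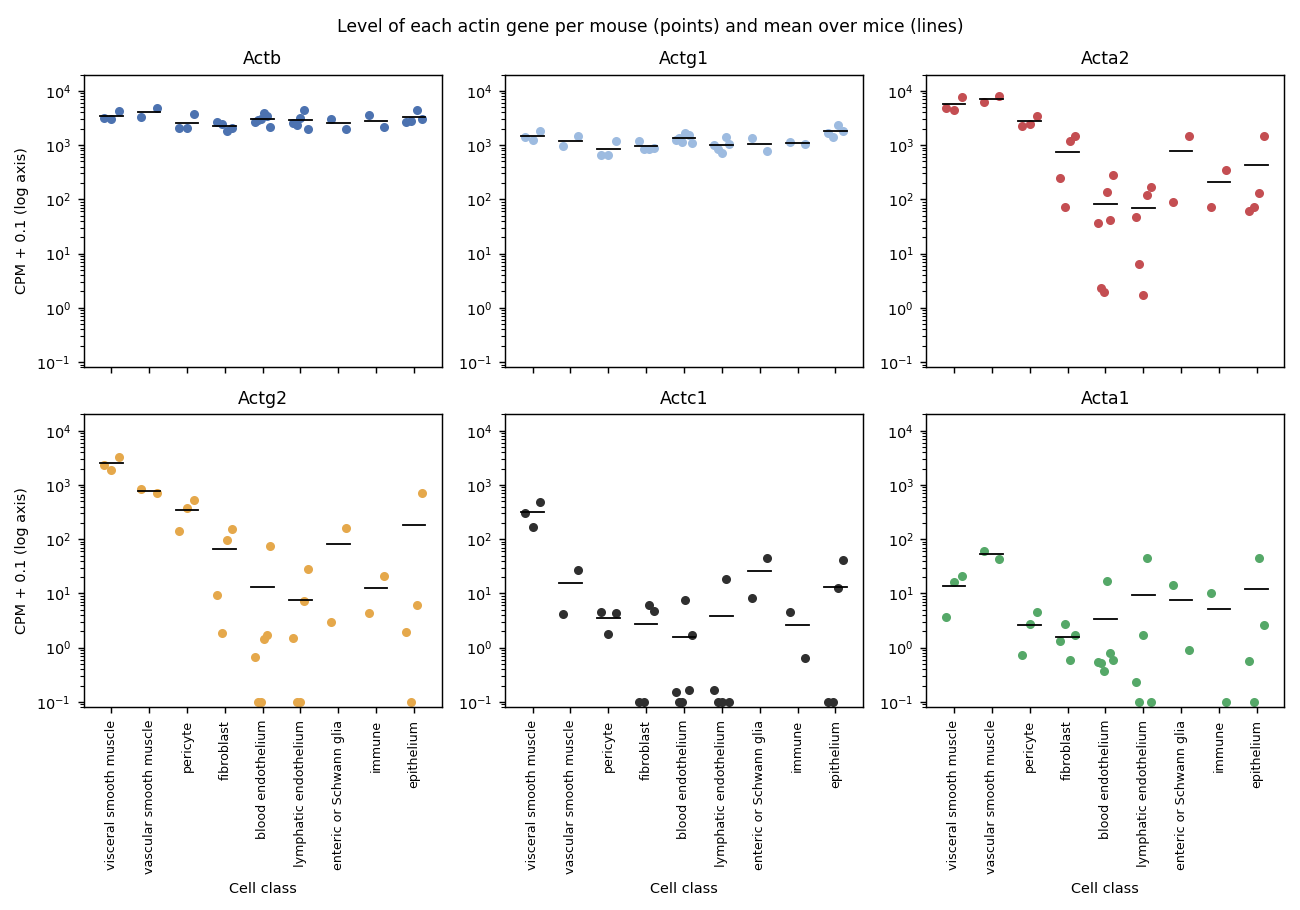
Level of each actin (CPM plus 0.1, log axis) in each mouse and class with at least 5 cells; each point is 1 mouse and the line is the mean over mice. Actb and Actg1 stay within a narrow band, while Acta2, Actg2 and Actc1 spread over several orders of magnitude.

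Actb was the most even of the 6. Its class means ran from 2246 CPM in fibroblast-like cells (1818 to 2651 in 4 mice) to 4028 ± 1013 CPM in vascular smooth muscle (n = 2), and each class overlapped the next in that order. Actg1 lay between 839.5 ± 312.3 CPM in pericyte-like cells (n = 3) and 1805 ± 399.3 CPM in epithelium-like cells (n = 4). The ratio of Actb to Actg1 counts was 2.28, 2.42 and 2.40 in visceral cells of 20GG79:1, 20GG79:6 and 20GG95:3. It was 3.39 in vascular cells of 20GG79:1 and 3.28 in those of 20GG95:3, and 3.04 to 3.22 in pericyte-like cells. The visceral values thus lay below those of both mural classes in every mouse measured. Without mixed cells the pericyte-like ratio was lower in each mouse but still above the visceral values. The Actb and Actg1 counts were then 9664 and 3788 in 20GG79:1, 2708 and 1047 in 20GG79:6, and 15432 and 5357 in 20GG95:3. The difference was not tested.

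Acta2 was highest in vascular smooth muscle, at 6112 CPM in 20GG79:1 and 7934 CPM in 20GG95:3. Visceral cells had 4820, 4491 and 7869 CPM in 20GG79:1, 20GG79:6 and 20GG95:3. The classes overlapped across mice, and the vascular value was the higher in each of the 2 shared mice. In 20GG95:3 that order held on plate 053s, with 7770 CPM in vascular and 6143 CPM in visceral cells, and was turned on its other plate, with 8140 and 9421 CPM. Pericyte-like cells had 2241, 2495 and 3504 CPM in the same 3 mice, below every visceral value. Fibroblast-like cells of the dual-line mice 20GG79:1 and 20GG79:6 had 1192 and 1454 CPM, and those of 19CB38:5 and 19CB4:5 (5 cells each) had 242.4 and 71.5 CPM. Myh11, the smooth muscle myosin heavy chain, moved with this split: 234.7 and 247.6 CPM in the former, 17.8 and 5.23 CPM in the latter. Line, number of cells and batch differ between these mice too, and their part in the result was not tested.

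In endothelium Acta2 followed the mouse rather than the class. In blood endothelium it was 1.89 and 2.26 CPM in the PDGFRaH2bGFP mice 18CB39:3 and 18CB109:10, and 36.01 and 41.1 CPM in the PDGFRbGFP mice 17E61:24 and 19CB4:5. It was 139.1 CPM in 19CB27:3 and 280 CPM in 20GG79:6. Lymphatic cells kept that order, with 1.63, 6.44, 46.3 and 120 CPM in 18CB39:3, 18CB109:10, 17E61:24 and 19CB27:3 and the highest level in 20GG79:6. The lymphatic levels of 18CB39:3 and 18CB109:10 rest on 2 and 10 counts in 9 and 5 cells, and that of 20GG79:6 on 5 cells. In such sums, fewer cells with the RNA and less RNA per cell cannot be told apart, and the part of free RNA from other cells was not tested. After removal of cells with markers of another class, the order of the PDGFRbGFP mice turned in blood endothelium. Acta2 there was then 34.99 CPM in 17E61:24 and 14.9 CPM in 19CB4:5. It was 139.1 CPM in 19CB27:3 and 150 CPM in 20GG79:6, which brought these mice close together. In glia-like cells of 20GG79:6 it was 161.7 CPM, against 1452 CPM with all cells. The lymphatic order could not be checked in this way, since only 17E61:24 and 18CB39:3 kept at least 5 lymphatic cells.

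Actg2 separated the 2 kinds of smooth muscle. It reached 2303, 1909 and 3283 CPM in visceral cells of 20GG79:1, 20GG79:6 and 20GG95:3, and 825 and 718 CPM in vascular cells of 20GG79:1 and 20GG95:3. Pericyte-like cells held 142.2, 371.1 and 527 CPM. The 3 classes did not overlap. Without mixed cells the pericyte-like levels were 110, 33.6 and 230 CPM in 20GG79:1, 20GG79:6 and 20GG95:3. Against Acta2, visceral cells had 417.2 to 477.7 Actg2 counts per 1000 Acta2 counts, vascular cells 90.5 to 134.9 and pericyte-like cells 63.4 to 150.6.

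The vascular level came from part of the cells. At least 100 CPM of Actg2 was found in 45 of 91 vascular cells of 20GG95:3, and in 98.2%, 94.5% and 99.1% of visceral cells of 20GG79:1, 20GG79:6 and 20GG95:3. After thinning each cell to 45000 counts, 74 of 97 vascular cells (76.3%) and 557 of 560 visceral cells (99.5%) had a count; unthinned these shares were 90.7% and 99.8%. In blood endothelium, which should lack Actg2, the thinned share was 7.82% and the unthinned 20.1%, at a median of 237330 gene counts against 162910 in vascular cells. These endothelial shares pool mice of several lines. In 20GG79:6, the only dual-line mouse among them, the thinned share was 18 of 32 cells (56.25%, 37.7% to 73.6%). In the other mice it ran from 0% to 7.35%. In 20GG79:6 the counts of other classes rested on few cells: 1 of 6 epithelium-like cells held 96.1% of the Actg2 counts and 4 of 39 glia-like cells held 90.2%.

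Actc1, the heart isoform, was a minor part of visceral smooth muscle. It reached 301.4, 170.5 and 490 CPM in visceral cells of 20GG79:1, 20GG79:6 and 20GG95:3, 2.51%, 1.58% and 2.75% of their actin counts. Vascular cells had 4.01 and 26.8 CPM and pericyte-like cells 1.72 to 4.46 CPM. Outside visceral muscle no mouse and class passed 44.2 CPM, the value of the glia-like cells of 20GG79:6, of which 4 cells held 96.9%.

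Within visceral muscle Actc1 was uneven. The median visceral cell had 17.3, 10.8 and 12.99 CPM in 20GG79:1, 20GG79:6 and 20GG95:3, far under the summed level. The 10% of cells with most Actc1 held 57.2%, 85.7% and 63.9% of its counts. At least 100 CPM was found in 37.04%, 20.5% and 32% of cells. No such split was seen for Actg2, which nearly every visceral cell carried at that level.

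These cells were not spread evenly over the 5 visceral clusters. In cluster 15, 40.1% of the cells of 20GG79:1 (exact 95% binomial interval 32.1% to 48.5%) and 32 of 51 cells of 20GG95:3 (62.7%, 48.1% to 75.9%) had at least 100 CPM of Actc1. In cluster 16 it was 47.6% of the cells of 20GG95:3 (39.3% to 56.01%), and in cluster 1 it was 14 of 61 cells of 20GG79:6 (13.1% to 35.5%). In cluster 14 it was 0 of 7 cells of 20GG79:1 (up to 40.96%), 0 of 10 of 20GG79:6 (up to 30.9%) and 0.935% of those of 20GG95:3 (0.0237% to 5.10%), and in the small cluster 17 it was 1 of 20. Cluster 14 had the highest Des, which encodes desmin, with a mean log2(CPM + 1) of 10.2 against 4.77 to 7.25 in the others, and was led by genes that include Shisa3, Cpe, Chrdl1 and Cnn1. In 20GG79:1 and 20GG79:6 these intervals reach the values of the same mice in clusters 15 and 1, so a low share in cluster 14 was resolved at this number of cells in 20GG95:3 only.

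**Figure D3:**
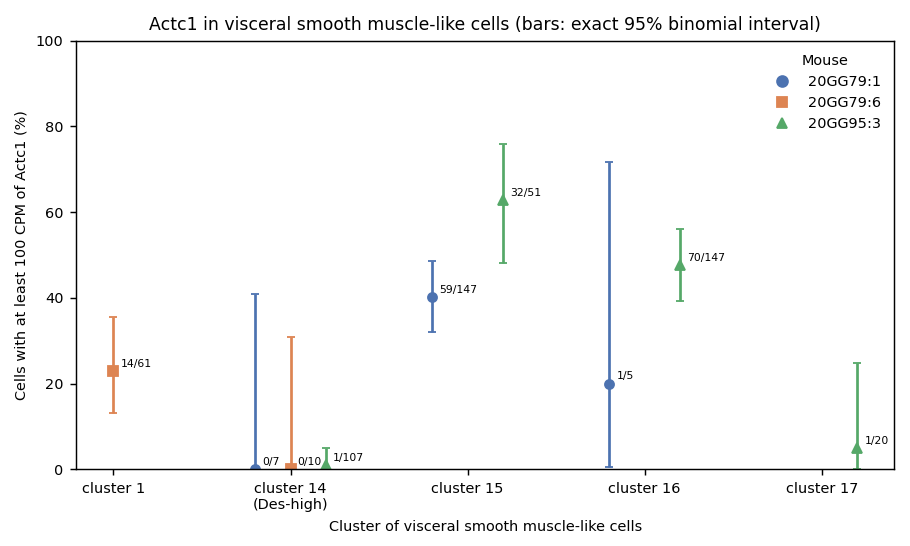
Percent of visceral smooth muscle-like cells with at least 100 CPM of Actc1 (vertical axis) in each cluster, 1 point per mouse with at least 5 cells, with exact 95% binomial intervals that cover counting error only. The Des-high cluster 14 lies at 0% to 0.935% in 3 mice, and cluster 15 at 40.1% and 62.7% in 2.

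This difference was tested with the other actins. Between the Des-high cluster and the other visceral clusters, Actc1 had 10.7 ± 1.36 against 409.3 ± 277.1 CPM (n = 3), a log2 fold change of -4.80 (SE 0.71) with an adjusted p of 0.00103 in edgeR's quasi-likelihood test. It was lower in 3 of 3 mice. It was the 1 actin called, where 0.161% of 14949 genes were lower and 0.221% higher in the Des-high cluster. The log2 fold changes of the other actins were 0.44 for Actg1 (SE 0.31), 0.36 for Acta2 (SE 0.25), 0.33 for Actg2 (SE 0.30), 0.10 for Actb (SE 0.27) and -0.83 for Acta1 (SE 1.46). Their adjusted p-values in edgeR's quasi-likelihood test ran from 0.819 to 0.997. The median over all tested genes was -0.45, so these values are relative to a shifted centre. Without 20GG95:3, which gave most of the Des-high cells, and with limma voom, 0 actins were called, and Actc1 kept its sign in each.

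Acta1, the skeletal isoform, was the rarest, with 3010 counts in all cells. It was highest in vascular cells, at 61.7 CPM in 20GG79:1 and 43.7 CPM in 20GG95:3, against 3.50, 15.97 and 21.2 CPM in visceral cells of 20GG79:1, 20GG79:6 and 20GG95:3. The 2 classes did not overlap, but 1 of the 5 vascular cells of 20GG79:1 held 92.2% of its 77 counts. In 20GG95:3 the median vascular cell had 20.3 CPM and the median visceral cell 16.3 CPM, while the highest vascular cell had 2005 CPM. On its 2 plates the vascular level was 59.1 and 24.2 CPM. After thinning, 57.7% of vascular and 35.4% of visceral cells had an Acta1 count, against 8.66% in blood endothelium. Unthinned these shares were 86.6%, 68.8% and 23.5%. All of them pool mice. Within 20GG95:3, which gave most vascular cells, the thinned shares were 59.3% (48.5% to 69.5%) of vascular and 49.2% (43.7% to 54.8%) of visceral cells. Visceral cells of 20GG79:1 and 20GG79:6 had 12.3% and 24.7%. In blood endothelium it was 27 of 57 cells in 19CB27:3 and 0 of 32 in 20GG79:6.

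Mouse 19CB27:3 stood apart for Acta1. Its Acta1 level was 9.95 to 44.6 CPM in 5 classes without muscle, where no other mouse passed 2.62 CPM in those or in fibroblast-like cells. Its Actc1 level was 4.54 to 18.4 CPM in the same 5 classes. For Actc1, however, 20GG79:6 was higher in glia-like cells (44.2 CPM) and epithelium-like cells (40.7 CPM). The 16 genes of a striated muscle list summed to 2.97 to 13.7 CPM there, and 11 or more of the 16 were at 0 in each class. The part of this mouse's line or plate, which are 1 each, cannot be told apart from that of the mouse.

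**Figure D4:**
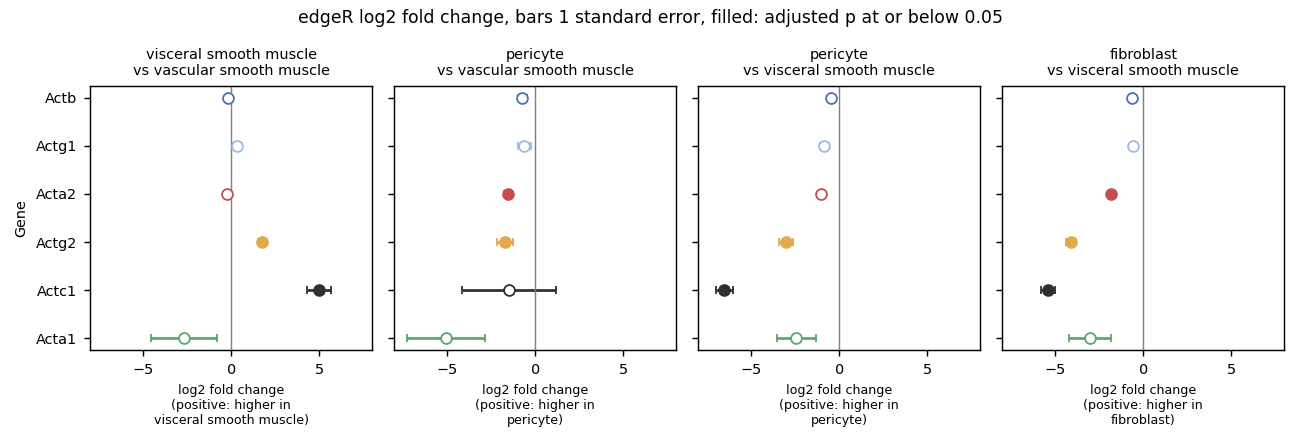
Log2 fold change of each actin in 4 comparisons (horizontal axis, bars of 1 SE), from the fit to summed counts per mouse and class; filled points passed an adjusted p of 0.05. In these 4, Acta2, Actg2 and Actc1 were the actins called.

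Classes were compared within mice by edgeR's quasi-likelihood test on summed counts, with the mouse as block. Benjamini-Hochberg adjustment was over all tested genes not used for clustering. Shares and medians over tested genes, here and elsewhere, also leave out the clustering genes, which include the markers. Visceral against vascular cells could be tested in 2 mice, 20GG79:1 and 20GG95:3. Of the 6 actins 2 were called, both higher in visceral cells, where 1.94% of 14982 genes were called higher and 1.66% lower. Actg2 was higher by a log2 fold change of 1.77 (standard error 0.26, adjusted p = 2.92e-09 in edgeR's quasi-likelihood test). Actc1 was higher by 5.00 (standard error 0.68, adjusted p = 3.30e-11 in edgeR's quasi-likelihood test). The 2 mice left 1 degree of freedom for the spread, and the fit took nearly all of it from other genes. Such p-values do not measure how these actins vary between mice, and their size cannot be ranked against that of other comparisons. Actb had -0.16, Actg1 0.35, Acta2 -0.24 and Acta1 -2.65 (SE 1.87), with adjusted p from 0.745 to 0.948 in edgeR's quasi-likelihood test, and the median over tested genes was 0.59. With a spread shared over all classes, or with either mouse left out in that joint fit, 0 actins were called.

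Pericyte-like against vascular cells were compared in the same 2 mice, so both comparisons share the vascular samples. Acta2 was lower in pericyte-like cells by a log2 fold change of -1.51 (standard error 0.23, adjusted p = 1.17e-08 in edgeR's quasi-likelihood test). Actg2 was lower by -1.69 (standard error 0.46, adjusted p = 0.0166 in edgeR's quasi-likelihood test). The spread was again taken almost wholly from other genes, with 1 degree of freedom left by the 2 mice. These were the 2 actins called, where 1.08% of 12997 genes were lower and 0.7% higher in pericyte-like cells. Actb had -0.74 and Actg1 -0.61, with adjusted p of 0.125 and 0.713 in edgeR's quasi-likelihood test. Actc1 had -1.49 with 1 of 2 mice in that direction, and Acta1 -5.07 with an adjusted p of 0.401 in edgeR's quasi-likelihood test. In the joint fit, and in the fit without the mouse as block, 0 actins were called. Over 14 alternatives the call of Actg2 was lost in 11 and that of Acta2 in 5.

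Pericyte-like and visceral cells met in 3 mice. Actg2 was lower in pericyte-like cells by a log2 fold change of -2.99 (standard error 0.39, adjusted p = 0.0199 in edgeR's quasi-likelihood test), and Actc1 by -6.52 (standard error 0.47, adjusted p = 0.00366 in edgeR's quasi-likelihood test). These were the 2 of 6 actins called, where 0.463% of 15558 genes were lower and 0.688% higher. Acta2 had -1.04 and was lower in 3 of 3 mice with an adjusted p of 0.0513 in edgeR's quasi-likelihood test, and was called in 6 of 16 alternatives. Actb had -0.46, Actg1 -0.86 and Acta1 -2.43, none called. Without 20GG79:6, and in the joint fit, 0 actins were called.

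Fibroblast-like and visceral cells were compared in 20GG79:1 and 20GG79:6, the dual-line mice with Acta2 of 1192 and 1454 CPM in fibroblast-like cells. All 3 actins called were lower in fibroblast-like cells: Acta2 by a log2 fold change of -1.81, Actg2 by -4.10 and Actc1 by -5.41. Their adjusted p-values in edgeR's quasi-likelihood test were 0.0331, 0.0248 and 0.0226, where 0.28% of 16064 genes were lower and 0.237% higher. Actb had -0.67, Actg1 -0.57 and Acta1 -3.04, none called. In the joint fit 0 were called, also with either mouse left out.

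Between non-muscle classes no actin passed. In fibroblast-like against blood endothelium-like cells of 19CB4:5 and 20GG79:6, 0 of 6 actins were called by edgeR's quasi-likelihood test, where 1.75% of 13273 genes were higher and 1.26% lower; 1 of 6 had an unadjusted p under 0.05, and DESeq2 and limma voom also called 0. Acta2 had a log2 fold change of 1.75 (standard error 0.87, adjusted p = 0.444 in edgeR's quasi-likelihood test) with both mice higher. The others had 0.73 for Actg2, 1.11 for Actc1, 1.93 for Acta1, -0.11 for Actb and -0.45 for Actg1, with adjusted p from 0.923 to 0.995 in edgeR's quasi-likelihood test. In lymphatic against blood endothelium of 5 mice, edgeR's quasi-likelihood test called 0 of 6, where 0.999% of 13711 genes were higher and 1.71% lower; 0 of 6 had an unadjusted p under 0.05, DESeq2 called 0 and limma voom 2. Actg1 was lower in 5 of 5 mice, with a log2 fold change of -0.44 (SE 0.20) and an adjusted p of 0.321 in edgeR's quasi-likelihood test. Actb had -0.07, Acta2 0.10, Actg2 0.76, Actc1 -0.32 and Acta1 -0.33, and the median over tested genes was -0.67.

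Genes that build, cap and regulate actin filaments were tested in the same comparisons, and their calls are given beside the share over all tested genes. In visceral against vascular cells, where 1.94% of all tested genes were higher and 1.66% lower, 1 of 35 tested genes of filament assembly and monomer binding was higher and 0 lower: Tmsb4x, a monomer-binding thymosin, with 714 against 161.4 CPM and a log2 fold change of 2.06. Of 39 genes of capping, severing and crosslinking 4 were higher and 0 lower, among them Svil (supervillin, 257.2 against 25.5 CPM), Flnc (filamin C, 444.01 against 89.3 CPM) and Tpm4 (a tropomyosin, 485.6 against 140.8 CPM). The assembly list had a median log2 fold change of 0.77 and the capping list of 0.58, beside 0.59 over all tested genes. Of 11 SRF-related genes, 2 were higher: Fhl1 with 2481 against 426.1 CPM and Fhl2 with 281.9 against 5.93 CPM, both LIM-domain proteins. Mical2, which oxidises actin, was the 1 of 21 genes of actin folding and modification that was lower, with 92.1 against 500 CPM.

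Genes of the immediate early and stress response moved with the same contrast. Of 16, 12 were lower in visceral than in vascular cells and 0 higher, where 1.66% of all tested genes were lower and 1.94% higher. The median log2 fold change of the 16 was -1.73, beside 0.59 over all tested genes. Their summed level was 27836 and 34099 CPM in vascular cells of the 2 mice, against 10013, 9957 and 8630 CPM in visceral cells and 13303, 8344 and 5022 CPM in pericyte-like cells. Nr4a1, an orphan nuclear receptor, had 5611 CPM in vascular and 722 CPM in visceral cells. The part of this response in the actin differences was not tested.

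In pericyte-like against vascular cells, where 1.08% of all tested genes were lower and 0.7% higher, 2 of 34 assembly genes were lower: Dstn (destrin, which depolymerises filaments, 626 against 2228 CPM) and Lmod1 (leiomodin 1, which nucleates them in smooth muscle, 156.7 against 495.7 CPM). Of 36 capping and crosslinking genes 4 were lower, Flna, Tpm2, Tpm1 and Pls3, and 2 higher, Tpm4 and Capg. Flna (filamin A) had 1609 against 4973 CPM and Tpm2 671 against 2260 CPM. Of 11 SRF-related genes, Myocd, which encodes myocardin, was lower with 166.2 against 731 CPM and Fhl2 higher with 161.1 against 5.93 CPM. Mical2 was lower, 1 of 20 folding and modification genes, and 12 of 16 stress genes were lower.

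In pericyte-like against visceral cells, where 0.688% of all tested genes were higher and 0.463% lower, 1 of 41 capping and crosslinking genes was higher, Tagln2 (transgelin 2, 850 against 293.2 CPM). Coro1c (a coronin, 171.2 against 903 CPM) and Svil (26.6 against 222.4 CPM) were the 2 lower. None of 36 assembly, 11 SRF-related, 21 folding and 16 stress genes was called. In fibroblast-like against visceral cells, where 0.28% of all tested genes were lower and 0.237% higher, Lmod1 was lower, 15.3 against 384.8 CPM, 1 of 37 assembly genes. Gsn, the severing protein gelsolin, was higher, 5244 against 1781 CPM, while Flna, Coro1c and Tpm2 were lower, of 42 capping and crosslinking genes. Myocd was lower, 89.4 against 810 CPM, 1 of 11 SRF-related genes.

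Gsn was also higher in fibroblast-like than in blood endothelium-like cells, 6087 against 847 CPM, as 1 of 40 capping and crosslinking genes, where 1.75% of all tested genes were higher and 1.26% lower. Fhl2 was higher and Elk3, an ETS factor that binds with SRF, lower there, 494.6 CPM in endothelium against 9.99 CPM. In lymphatic against blood endothelium, where 0.999% of all tested genes were higher and 1.71% lower, 3 of 40 capping and crosslinking genes were higher, Flnc, Tmod2 and Cald1, and Pls3 was lower. Mrtfb, the SRF coactivator, was lower with 17.1 against 407.4 CPM, and Mical2 higher with 186.8 against 10.8 CPM. In that comparison 4 of 16 stress genes were lower. No gene of these lists was called between the Des-high cluster and the other visceral clusters.

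**Figure D5:**
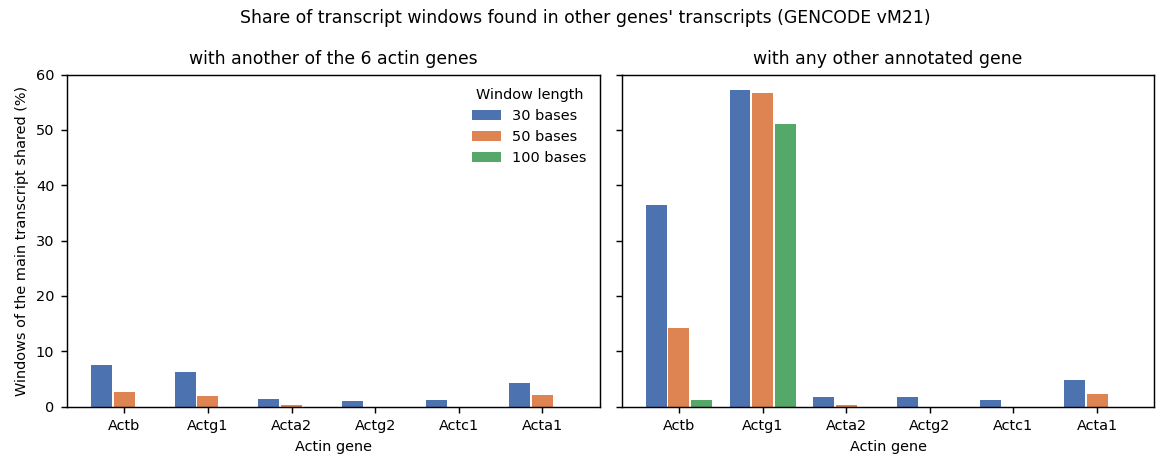
Percent of the windows of each actin's longest coding transcript (vertical axis) that also occur in another actin gene or in any other gene, for windows of 30, 50 and 100 bases. Sharing between actins vanishes at 100 bases, while 51.1% of Actg1 windows still occur in another gene.

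How far counts could have been exchanged between isoforms was measured on the transcripts. At 30 bases, 7.51% of Actb windows, 6.24% of Actg1, 4.23% of Acta1, 1.35% of Acta2, 1.11% of Actc1 and 1.0% of Actg2 windows also occurred in another of the 6 genes. At 50 bases these shares were 2.57%, 1.94%, 2.0%, 0.35%, 0% and 0%, and at 100 bases 0% for all. Acta1 shared most with Actb: 59 of its 1417 windows of 30 bases. Actb had 1186087 counts in all cells and Acta1 3010, and the fraction of reads assigned to the wrong gene could not be measured here.

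Other genes shared more than the actins did. With any gene, 57.2% of Actg1 windows of 30 bases and 51.1% of those of 100 bases were shared, most with the pseudogenes Gm12715 and Gm8399. For Actb it was 36.5% and 1.1%, most with Lrrc58 and Gm15725. Across classes Gm12715 had 0.432 to 2.37 counts per 1000 Actg1 counts, while Lrrc58 had 39.9 to 366.7 and Gm15725 8.83 to 66.3 on that scale. Actg1 and Actb levels are therefore uncertain to the extent that reads with several matches were dropped, which the sources used here do not say.

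Across 31 sums of mouse and class, the genes most like each actin were ranked by Pearson's r of log2(CPM + 1) among 10604 genes. The sums share mice, plates and the contrast between muscle and other classes, so r is a description. Acta2 was most like Myl9 (0.968), Myh11 (0.967) and Tagln (0.946), genes of smooth muscle myosin and of the calponin family, and Actg2 most like Cnn1 (0.982), Myh11 (0.970) and Lmod1 (0.956). Myh11, Tagln and Cnn1 were among the markers that named the classes. Acta2 and Actg2 had 0.937 with each other, and Actg2 and Actc1 0.757. Actc1 was most like Dtna (0.818), Vwa5b2 (0.803) and Trpv2 (0.783). Actb was most like Actg1 (0.699), Hspa1l (0.676) and Zfp871 (0.612), and Actg1 most like Actb, Casz1 (0.678) and Maoa (0.630). Actb had 0.03 with Acta2 and with Actg2 0.04. Over the 560 visceral cells Acta2 and Actg2 had 0.633 and Acta2 and Actc1 0.108.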

How the data were processed

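The authors deposited 1 table of raw counts, with Ensembl gene IDs and spike-ins by cell and no normalization; per the submitters' processing notes bcl2fastq, Bowtie, Bowtie2, featureCounts, Subread, GRCm38 and mm10 were used, with roles and versions not given. From these counts CPM were computed over non-spike rows. Symbols from GENCODE M21 matched 46005 of 46517 IDs. Cells under 20000 gene counts or 1000 genes were to be removed, and 0 were. Cells were clustered on 2080 genes without the actins and actin lists (scanpy 1.11.5, 20 components, 15 neighbours, Leiden resolution 1), and clusters were named from markers when at least 3 were found in 25% of cells. No doublet caller was run; cells with markers of another class were left out as an alternative. Counts were summed per mouse and class (at least 5 cells) and tested with edgeR 4.0.16 (TMM, filterByExpr, robust quasi-likelihood fit, mouse as block, threshold 0.05), adjusted over all tested genes not used for clustering. The mouse pairs the classes because the same animal gave both. In a simulation with 200 changed genes the fit recovered 74.5% in the visceral against vascular design (17396 genes, 2 false calls). The simulated counts had the same spread for every gene, no difference between mice, and changes of 4 times in genes of 50 CPM or more. The simulation therefore cannot show how the fit does with the spread between real mice. Named genes were up to 4 per list and direction with the smallest p, a level of 50 CPM or more in 1 of the classes and the same sign in every mouse. Intervals cover counting error only, since reads were not tagged by molecule; they are exact (Clopper-Pearson, 95%). The members and lists were chosen with earlier results of these data known. Alternatives were DESeq2 1.42.0, limma voom 3.58.1, other scaling, filters, clusterings, cells, plates and mice. Some shared stretches and 1 gene are not reported here.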

Additional observations from a re-analysis of the deposited data

Results flagged for a closer look

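In 24 groups of 4 to 6 mice, 1 for each actin and class, 10 had a mouse whose gap to the nearest other was a large part of the group's range. The limit is set so that chance gives about 1 in 20 groups of independent, normally spread values. Many of these levels lie near 0 and the groups share mice, so that rate does not hold here. Mouse 20GG79:6 was high in 4 of them: Acta2 in epithelium-like cells with 1492 CPM (others 60.2 to 128.5), Actg2 there with 723 CPM (0 to 6.12), Actg2 in blood endothelium with 76.1 CPM (0 to 1.64) and Actg2 in lymphatic endothelium with 28.2 CPM (0 to 7.04). Mouse 19CB27:3 was high in 5. Its Acta1 level was 16.9 CPM in blood endothelium (others 0.2697 to 0.692), 44.6 CPM in lymphatic endothelium (0 to 1.63) and 44.4 CPM in epithelium-like cells (0 to 2.49). Its Actc1 level was 7.33 CPM in blood endothelium (0 to 1.58) and 18.4 CPM in lymphatic endothelium (0 to 0.0685). Actg1 in fibroblast-like cells was high in 19CB38:5 with 1187 CPM (846 to 886), from 5 cells. Without 1 mixed cell, Actg2 in blood endothelium of 20GG79:6 was 19.97 CPM over 31 cells. The causes were not tested.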

How the results depend on the processing

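The tests rest on 2 to 5 mice per comparison, and with 2 mice leave-one-out values come from 1 joint fit over all classes, in which the lone sample is assumed to vary like the other groups. The plate alternatives were run where 20GG95:3 took part. Division by the longest coding transcript and removal of the smallest visceral cluster were chosen after seeing the data. The causes of the changes below were not tested. Among the alternative fold changes of the 6 actins, 30 changed sign, 41 lost a call and 12 gained one, and of the counts of called actins 72 stayed within 1.5 times, 24 dropped and 3 rose.

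Of the actins called, visceral against vascular cells had 2, and 1 with DESeq2, 4 with limma voom, 1 with no replicate block, 0 with the spread shared over all classes, and 0 to 0 over leave-one-out fits. Pericyte-like against vascular cells had 2. That count was 1 with DESeq2, limma voom, either other Leiden resolution, cells of at least 100000 counts or either plate of 20GG95:3 left out, and 0 with no replicate block, with the shared spread and in both leave-one-out fits. Pericyte-like against visceral cells had 2, and 4 with no filter on low counts, 0 with the shared spread and 0 without 20GG79:6. Fibroblast-like against visceral cells had 3, and 0 with the shared spread and in both leave-one-out fits. Lymphatic against blood endothelium had 0, and 2 with limma voom. The Des-high comparison had 1, and 0 with limma voom, with the shared spread and without 20GG95:3. Removing the mouse block changed no other count of called actins by over 1.5 times.

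The number of genes called moved more than 1.5 times in these settings, each given as the share of the genes tested there. In visceral against vascular cells the 3.59% became 0.975% with no replicate block, 2.46% without the plate of 20GG95:3 other than 053s, 0.0271% with the shared spread and 0% without 20GG79:1 or 20GG95:3. In pericyte-like against vascular cells the 1.79% became 3.55% with DESeq2, 0.115% with limma voom, 0.108% with no replicate block, 0.766% at Leiden resolution 0.5, 1.19% in deep cells, 0.0585% without the plate of 20GG95:3 other than 053s, 0.0163% with the shared spread and 0% without 20GG79:1 or 20GG95:3. In pericyte-like against visceral cells the 1.15% became 8.81% with DESeq2, 2.32% with limma voom, 1.59% with no filter, 0.749% in deep cells, 0% with the shared spread and 0% without 20GG79:6. In fibroblast-like against visceral cells the 0.517% became 7.53% with DESeq2, 0.125% with limma voom, 1.03% with RLE size factors, 1.34% with no filter, 0.249% with no replicate block, 0.888% at Leiden resolution 0.5, 1.75% at Leiden resolution 2, 1.15% without mixed cells, 0% with the shared spread and 0% without 20GG79:1 or 20GG79:6. In fibroblast-like against blood endothelium-like cells the 3.01% became 11.6% with DESeq2, 5.25% with limma voom, 1.06% with no filter, 1.13% with the shared spread and 0.338% without 19CB4:5, 0.00489% without 20GG79:6. In lymphatic against blood endothelium the 2.71% became 13.6% with DESeq2, 6.52% with limma voom, 2.5% with no filter, 1.59% in deep cells, 0.889% without mixed cells, 3.98% with the shared spread and 1.48% without 17E61:24, 1.67% without 18CB39:3, 1.08% without 19CB27:3, 1.54% without 20GG79:6. In the Des-high comparison the 0.381% became 3.68% with DESeq2, 0% with limma voom, 0.141% with no replicate block, 0.166% without mixed cells, 0.233% without the plate of 20GG95:3 other than 053s, 0% with the shared spread and 0.719% without 20GG79:6, 0.242% without 20GG95:3.

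Fold changes that turned sign belonged to actins with no call. In pericyte-like against vascular cells Actc1 turned to 0.45 without plate 053s. In fibroblast-like against blood endothelium-like cells Actc1 turned to -0.065 with the shared spread, -0.047 without 19CB4:5 and -2.99 without 20GG79:6. In lymphatic against blood endothelium Actb turned to 0.20 with DESeq2 and with RLE size factors, 0.0011 in deep cells and 0.19 without mixed cells. Actc1 there turned to 0.93 with DESeq2, 0.86 with limma voom, 0.43 with the shared spread and 0.83 without 20GG79:6, in a leave-one-out range of -0.68 to 0.83. Acta2 turned to -0.031 with limma voom, -0.37 with no replicate block, -0.071 with the shared spread, -0.30 in deep cells, -0.0076 without 17E61:24 and -0.23 without 18CB109:10, in a leave-one-out range of -0.23 to 0.34. Acta1 turned to 0.23 with limma voom, 0.14 without 17E61:24, 0.12 without 18CB109:10 and 0.19 without 20GG79:6, in a leave-one-out range of -1.15 to 0.19. Actg2 turned to -0.98 with no replicate block and -0.048 without 19CB27:3, in a leave-one-out range of -0.048 to 1.74. In the Des-high comparison Actb turned to -0.23 with limma voom, -0.093 with the shared spread and -0.15 without 20GG79:6, in a leave-one-out range of -0.15 to 0.37. Acta2 turned to -0.015 with limma voom, and Actg2 to -0.045 with limma voom and -0.057 without 20GG79:6, in a leave-one-out range of -0.057 to 0.65.

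Of the alternative shares 32 moved by over 1 SD. Counts divided by exon length gave in visceral cells Actb 21.1%, Actg1 8.97%, Actg2 25.5% and Actc1 3.04%, in vascular cells Actb 26.2%, Actg1 7.94%, Acta2 56.1%, Actg2 8.92% and Acta1 0.626%, and in pericyte-like cells Actb 34.9%, Actg1 11.3%, Acta2 45.9% and Actg2 7.74%. Division by the longest coding transcript gave in visceral cells Actg1 10.2%, Acta2 37.3% and Actg2 24.98%, in vascular cells Acta2 50.8% and Actg2 8.75%, and in pericyte-like cells Actg2 7.36%. The mean over cells gave visceral Actg2 17.2%, vascular Acta2 54.8%, pericyte-like Actb 46.2% and Acta2 36.8%, and immune-like Actg1 21.6% and Actc1 0.1135%. Without mixed cells the pericyte-like shares were Actb 47.1%, Actg1 17.6%, Acta2 32.8% and Actg2 2.38%. At Leiden resolution 0.5 they were 41.5% for Actb and 39.4% for Acta2. In deep cells the epithelium-like Actg1 share was 38.7%.

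The share of cells with a count, here pooled over the mice of a class, depended on depth. Thinned to 45000 counts, Actg2 was found in 76.3% of vascular, 81.9% of pericyte-like, 78.1% of fibroblast-like, 7.82% of blood endothelial, 10.1% of lymphatic, 59.3% of glia-like, 36.7% of immune-like and 21.1% of epithelium-like cells. Thinned Actc1 was found in 55.9% of visceral, 15.5% of vascular, 16.2% of pericyte-like, 13.02% of fibroblast-like, 4.75% of blood endothelial, 22.03% of glia-like and 13.3% of immune-like cells. Thinned Acta1 was found in 35.4% of visceral, 57.7% of vascular, 12.5% of pericyte-like, 5.58% of fibroblast-like, 8.66% of blood endothelial, 15.2% of lymphatic, 16.9% of glia-like and 23.3% of immune-like cells. With at least 3 counts as the limit, Actg2 was found in 74.2% of vascular, 80.6% of pericyte-like, 84.7% of fibroblast-like, 8.94% of blood endothelial, 16.5% of lymphatic, 55.9% of glia-like, 23.3% of immune-like and 12.3% of epithelium-like cells. With that limit Actc1 was found in 48.04% of visceral, 6.19% of vascular, 8.12% of pericyte-like, 14.4% of fibroblast-like, 3.63% of blood endothelial, 20.3% of glia-like and 10.0% of immune-like cells. Acta1 then was found in 32.7% of visceral, 57.7% of vascular, 2.5% of pericyte-like, 2.79% of fibroblast-like, 5.87% of blood endothelial, 12.7% of lymphatic, 10.2% of glia-like, 26.7% of immune-like and 7.02% of epithelium-like cells.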

Other observations

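The mix of isoforms varied between single visceral clusters, with the highest Acta2 and the lowest Actb share in the smallest. In the 20 cells of cluster 17, all from 20GG95:3, Acta2 took 56.8% of actin counts and Actb 10.8%, against 36.3% and 28.1% in the 51 cells of cluster 15 from the same mouse. Actg2 took 22.7% and 19.0% in the same clusters. Clusters 14 and 16 of 20GG95:3 lay between them, with 46.4% and 45.7% for Acta2 and 23.1% and 24.6% for Actb. The Actc1 share of this mouse ran from 0.0549% in cluster 14 to 4.94% in cluster 15. Both plates of 20GG95:3 differed for Acta2 in visceral cells, with 38.4% of actin counts on 053s and 48.5% on the other, while Actg2 took 18.1% and 18.7%. In vascular cells the plates had 49.6% and 58.3% for Acta2, and Actc1 was 45.9 and 2.61 CPM. Over both plates, 4 of the 91 vascular cells had at least 100 CPM of Actc1, and the highest had 1451 CPM.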
